A study of Mus musculus with 32 samples.

Results

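The 40 genes described here encode sarcomere proteins and other proteins typical of muscle, and their transcripts were measured in mouse brown adipose tissue. They were found by their gene names in the array design, which gave 85 probes on the array for the 40 names. Of these probes, 81 passed the filter on dim signals, and they measured 39 of the 40 genes among 24523 genes in all. The members were chosen from the muscle signal that separates the mouse lines in these same arrays, so the levels of the lines are given as a description without a test. The knockout contrasts within each line were not used for that choice and were tested. Brown fat was taken from 32 C57BL6/J male mice, which had been fasted for 24 hours and then given food again for 18 hours, with 20% glucose in their water. Total ChREBP KO mice are null for Mlxipl, the gene of the carbohydrate-responsive transcription factor ChREBP, and lack both of its isoforms. ChREBPβ KO mice lack only exon 1b of that gene, removed by CRISPR/Cas9, and thus only the short isoform. Both deletions are carried in the whole body, and each line was compared with its own WT group, with 8 arrays in each of the 4 groups.

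Skeletal muscle fibres contract when myosin thick filaments pull on actin thin filaments within the sarcomere, and calcium released from the sarcoplasmic reticulum starts the pull by binding troponin. Fast and slow fibres use different genes for the myosin chains, troponins and calcium pumps. Interscapular brown fat lies on muscles of the back, and brown adipocytes share Myf5-expressing precursors with skeletal muscle. In RNA from whole tissue, fewer cells of a type and less RNA per cell cannot be told apart.

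Some of the 60-base probes of the members are shown here, with their mm9 positions from the array files. They cover a thin filament gene, an enzyme, a fast and a slow form of troponin T, the slow troponin C and the perinatal myosin. The last is a probe of Tpm3, the gene whose brightest probe, not shown, least followed the other members by Pearson's r. For Tnnt3, Tnnt1 and Tpm3 the probe shown is not the brightest, which is A_66_P110621, A_55_P2088385 and A_55_P2090209 and stands for the gene in the values below. Capitals in the Myh8 probe mark the 19 bases that it shares with the probe of Myh1, the longest run common to probes of different members.
Acta1 A_51_P246854, chr8:126416197-126416256, minus strand: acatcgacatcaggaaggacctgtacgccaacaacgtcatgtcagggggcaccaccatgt
Ckm A_51_P380807, chr7:20002222-20004829, plus strand: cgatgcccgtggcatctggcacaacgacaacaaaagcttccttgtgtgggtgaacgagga
Tnnt3 A_52_P622418, chr7:149698254-149698479, plus strand: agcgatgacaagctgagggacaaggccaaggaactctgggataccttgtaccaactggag
Tnnt1 A_51_P362627, chr7:4460086-4460145, minus strand: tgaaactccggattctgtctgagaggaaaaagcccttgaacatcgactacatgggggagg
Tnnc1 A_51_P461894, chr14:32023360-32023776, plus strand: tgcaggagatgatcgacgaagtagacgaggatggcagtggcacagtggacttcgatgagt
Myh8 A_51_P143296, chr11:67121925-67121984, plus strand: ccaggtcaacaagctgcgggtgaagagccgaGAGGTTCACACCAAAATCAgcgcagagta
Tpm3 A_51_P462153, chr3:89893733-89893942, plus strand: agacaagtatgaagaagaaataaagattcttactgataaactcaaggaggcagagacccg
The stretches given for Ckm, Tnnt3, Tnnc1 and Tpm3 are longer than the probe, so that these probes join separate pieces of the genome. Exons and untranslated regions were not looked up here. Of 3164 pairs of probes for different members, 2 shared a run of 15 or more bases.

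The promoters of the listed genes were also searched for motifs, whether or not a gene moved with the others. They include those of Myf5, which was not measurable, and of Tpm3, whose brightest probe hardly followed the other members. Of the 40 genes, 32 had a promoter in the RefSeq table of build GRCm38.p6, read over the 250 bases before the start on both strands. A gene was counted if any of its promoters held the motif, so a gene with more promoters had more chances of a match. The E-box CAGCTG, of the kind bound by the myogenic factors, was found in 15 of these 32 genes (46.88%) and in 14.72% of 27025 genes. The CArG box, bound by serum response factor, was found in 5 members (15.62%) and in 1.624% of all genes. A MEF2-type motif, CTANNNNTAG, was found in 4 members (12.5%) and in 3.7% of all genes, and TATAAA in 7 members (21.88%) and in 14.33% of all genes. Each motif was counted on its own, and the letters of the last 3 can overlap. Promoters of skeletal actin and of muscle creatine kinase are printed with the E-box and CArG letters in capitals.
Acta1, chr8:123894776-123895025, minus strand: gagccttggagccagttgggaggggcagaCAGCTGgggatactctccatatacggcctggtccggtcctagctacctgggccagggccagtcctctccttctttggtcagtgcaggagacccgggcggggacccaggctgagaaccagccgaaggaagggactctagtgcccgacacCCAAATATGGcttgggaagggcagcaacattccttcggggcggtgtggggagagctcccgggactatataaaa
Ckm, chr7:19410844-19411093, plus strand: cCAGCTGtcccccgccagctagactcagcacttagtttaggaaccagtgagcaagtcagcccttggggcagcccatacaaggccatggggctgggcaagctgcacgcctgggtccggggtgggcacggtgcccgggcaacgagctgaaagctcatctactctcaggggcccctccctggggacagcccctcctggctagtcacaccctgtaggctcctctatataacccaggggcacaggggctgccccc
The E-box began 221 bases before the start in Acta1 and 249 bases before it in Ckm, and the CArG box of Acta1 began 73 bases before the start. These are matches of letters in a window and do not show binding.

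Values are log2 intensities after quantile normalization, and each gene is represented by the probe that was brightest over all arrays, unless another probe is named. The muscle transcripts were far higher on the 16 arrays of the total ChREBP line than on the 16 arrays of the ChREBPβ line, in WT and KO mice alike. Without exception, the 39 members were well above background on every array of the total ChREBP line, against 27 to 39 members per array in the ChREBPβ line. For 32 members, every array of the total line lay above every array of the ChREBPβ line, and 0 members showed the opposite. Over the 24523 genes, the shares were 1.79% and 1.3%. These counts follow from how the members were chosen. The difference between the line means had a median of 6.07 on the log2 scale over the members and of -0.04 over all genes, and for the WT groups alone the median over the members was 5.57. Of the 42 other skeletal muscle genes with a value, 39 also had all arrays of the total line above all arrays of the ChREBPβ line. They were listed with earlier results of these data known, so this count is a description only. Their median on an array ran from 4.99 to 7.03 in WT and from 4.99 to 6.38 in KO mice of the ChREBPβ line. Genes that passed the filter only through the total line were favoured to separate, and their number is not given here.

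Replicate 8 of the total-line WT group had the lowest muscle signal of its line. Without it, 38 of the 39 members had lines that did not overlap, the exception being Tpm3. Such a count cannot fall when an array is left out. The same is true of the share over all genes, which is not given here for these omissions. Leaving out replicate 5 of the WT mice in the ChREBPβ line gave 34. The arrays were washed in 4 batches, and within each of them all 39 members had a higher mean in the total line, with median differences of 7.46, 5.92, 6.66 and 4.59. On the 14 slides that held both lines, the median of the fast fibre genes was higher in the total line by 3.78 to 9.80. These counts and differences also follow from how the members were chosen and are a description only.

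Markers of other tissues seldom separated the lines in this way. The brown fat gene Ucp1, the uncoupling protein of thermogenesis, lay between 18.2 and 18.6 on all 32 arrays. This is the top of the quantile-normalized scale, where arrays can share an identical value, so its evenness is set in part by the normalization and does not measure how much brown fat a sample held. In the lists of brown fat (11 genes), adipocytes (5), white fat (4), liver (8), lymphocytes (4), blood (3) and nerve (4), 0 genes were higher on every array of the total line. The count was also 0 of 6 for smooth muscle, of which Myh11, the smooth muscle myosin, was lower on every array of the total line, by 1.00 on average. It was 1 of 6 for cardiac muscle, the myosin Myh6 with a difference of 1.44, and 1 of 3 for tendon, the matrix protein Thbs4 with 2.88. The mean of the liver genes varied from 5.91 to 10.5 in the total line and from 5.80 to 12.4 in the ChREBPβ line. By their means all 8 liver genes were lower in the total line, where the line difference had a median of -2.13 and ran from -3.03 to -0.89, and their part in the muscle values was not tested. The brightest probe of Mlxipl fell by 2.48 in total ChREBP KO and fell by 1.498 in ChREBPβ KO. Other probes of the gene disagreed with it. A_55_P2728555 had -0.77 and -1.14 in the same order, and A_55_P2045158 had 0.14 and -0.08, neither of them called.

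**Figure D1:**
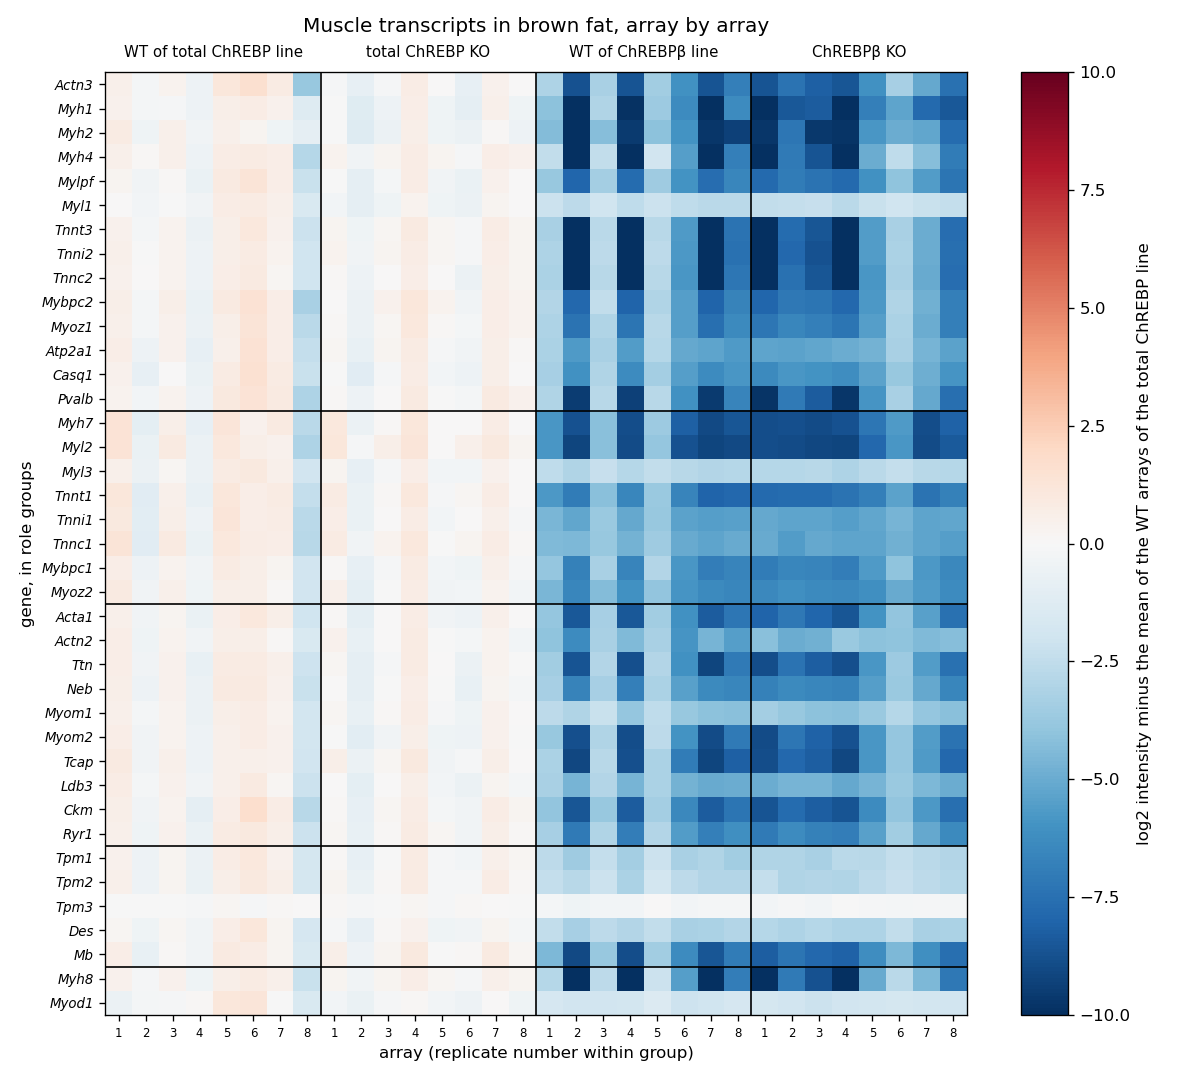
Level of each of the 39 members (rows, in the role groups fast fibre, slow fibre, both fibre types, also outside skeletal muscle, and perinatal or myogenic factor) on each of the 32 arrays (columns), as log2 intensity minus the mean of the WT arrays of the total ChREBP line. Values below -10 have the darkest blue. The 16 arrays of the ChREBPβ line are blue in nearly all rows, replicates 1, 3 and 5 of its WT group and replicate 6 of its KO group least so, and replicate 8 of the total-line WT group is the bluest array of its line.

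Fast fibre genes, 14 in number, comprised myosin chains, troponins and calcium-handling proteins of quickly contracting fibres. Their median on an array ran from 12.96 over a group median of 15.10 to 15.65 in WT and from 13.57 over 14.41 to 15.46 in KO mice of the total line. It ran from 5.63 over 8.46 to 11.41 in WT and from 5.66 over 7.35 to 10.14 in KO mice of the ChREBPβ line. The total-line groups overlapped widely with each other, as did those of the ChREBPβ line, and the lines did not overlap.

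Myh4, the myosin heavy chain of the fastest (type IIB) fibres, had a line difference of 7.42, beside 7.28 for Myh1 and 7.16 for Myh2. On 5 of the 16 ChREBPβ-line arrays it was not well above background, so neither the size nor this order is settled. Its lowest, median and highest values were 14.10, 17.40 and 17.74 in WT and 16.57, 17.24 and 17.69 in KO mice of the total line, and 4.36, 10.74 and 14.96 in WT and 4.26, 9.88 and 14.35 in KO mice of the ChREBPβ line. Lines overlapped for this gene, because the highest ChREBPβ-line arrays reached above replicate 8 of the total-line WT group. The arrays well above background in the ChREBPβ line were 5 of 8 WT and 6 of 8 KO arrays. Actn3, the fast actinin of the Z-disc, Mybpc2, the fast myosin-binding protein C, and Pvalb, the calcium buffer parvalbumin, overlapped between the lines in the same place.

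Myh1, the heavy chain of type IIX fibres, had 13.55, 14.97 and 15.58 in WT and 13.59, 14.41 and 15.47 in KO mice of the total line. In the ChREBPβ line it had 4.61, 8.55 and 11.80 in WT and 4.70, 6.45 and 9.59 in KO. KO and WT arrays overlapped in each line, and the lines did not. Myh2, the heavy chain of type IIA fibres, had 13.97, 14.78 and 15.69 in WT and 13.56, 14.33 and 15.46 in KO mice of the total line, and 4.86, 7.20 and 10.75 in WT and 5.02, 7.40 and 9.84 in KO mice of the ChREBPβ line. Its lines lay furthest apart of all members, with a gap of 2.81 between the lowest total-line and the highest ChREBPβ-line array.

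Myl1, a myosin light chain of fast fibres, had a line difference of 2.26, the smallest of the fast group. It had 14.82, 16.37 and 17.18 in WT and 15.48, 16.03 and 16.73 in KO mice of the total line. The ChREBPβ line lay just below, with 13.64, 13.81 and 14.36 in WT and 13.61, 14.01 and 14.32 in KO. The other fast members, which include the troponins Tnnt3, Tnni2 and Tnnc2, the calcium pump Atp2a1 and the calcium store protein Casq1, had line differences between those of Myl1 and Myh4.

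All 8 slow fibre genes, which serve fibres that contract slowly and tire little, had lines without overlap. Their median on an array ran from 10.90 over 13.85 to 14.40 in WT and from 12.63 over 13.33 to 14.10 in KO mice of the total line, and from 5.51 over 6.20 to 9.99 in WT and from 5.52 over 5.90 to 8.34 in KO mice of the ChREBPβ line. Myl2, a regulatory light chain of slow fibres and of the heart, had the largest line difference of all members, 8.17 or 287-fold. It had 11.06, 14.64 and 15.45 in WT and 14.02, 14.66 and 15.34 in KO mice of the total line, and 4.97, 5.30 and 10.29 in WT and 4.91, 5.22 and 8.28 in KO mice of the ChREBPβ line. The low values of the ChREBPβ line were close to the floor of the arrays, so neither the size nor the rank of this difference is settled. Most ChREBPβ-line arrays lay near 5, and a few of them stood well above.

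Myh7, the slow myosin heavy chain, repeated that distribution. It had 11.31, 14.57 and 15.40 in WT and 13.49, 14.13 and 15.14 in KO mice of the total line, and 5.02, 5.69 and 10.39 in WT and 5.06, 5.29 and 8.40 in KO mice of the ChREBPβ line. Tnnc1, the calcium-binding troponin of slow fibres, had 7.80, 11.28 and 11.87 in WT and 10.22, 10.92 and 11.66 in KO mice of the total line. It had 5.32, 5.99 and 7.02 in WT and 5.03, 5.35 and 5.76 in KO mice of the ChREBPβ line, a narrower spread than that of the myosins in this line. Myoz2, a Z-disc protein of slow fibres, exceeded background clearly on 4 of 8 WT and 2 of 8 KO arrays of the ChREBPβ line. Its probe passed the filter through the total line alone, which favoured its separation in advance.

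**Figure D2:**
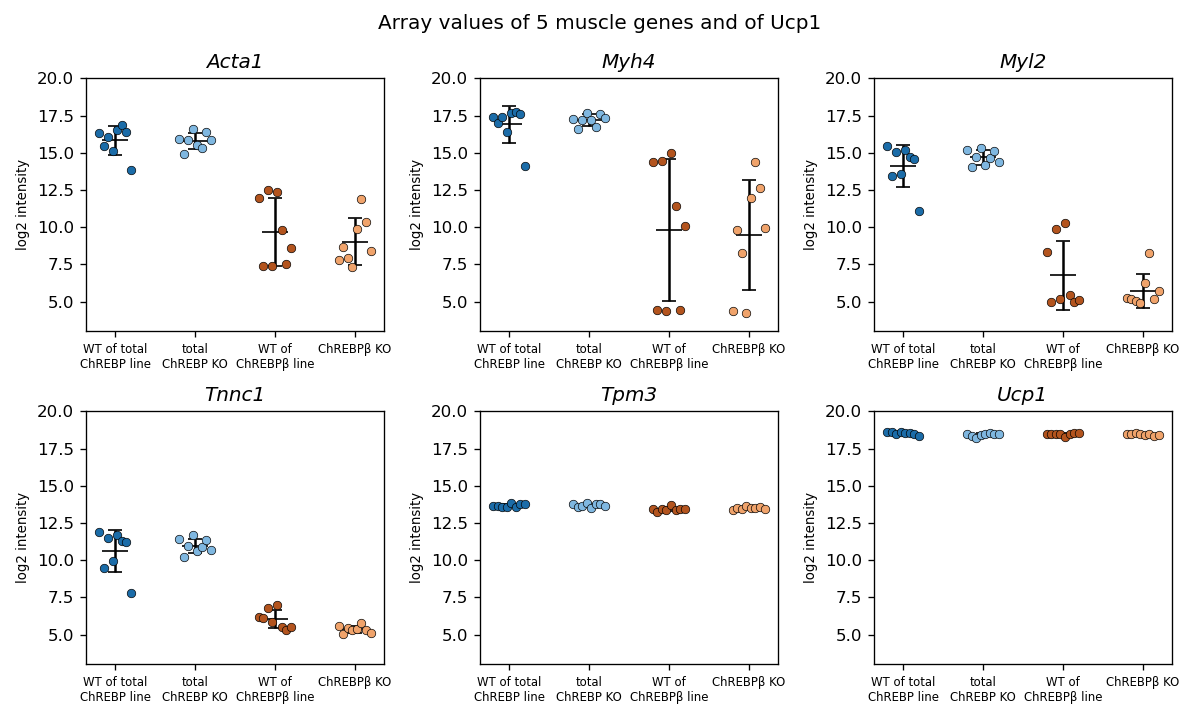
Log2 intensity (y axis) on each array (points) in the 4 groups (x axis) for 5 muscle genes and for Ucp1, with bars for the mean ± SD of 8 arrays. Acta1, Myl2 and Tnnc1 do not overlap between the lines, Myh4 overlaps through 1 low total-line array, and Tpm3 and Ucp1 lie at nearly the same level on all arrays, Ucp1 at the top of the normalized scale.

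The 10 genes of both fibre types all had lines without overlap. Tcap, the titin cap of the Z-disc, differed most, by 6.87 or 117-fold. It had 13.13, 15.50 and 15.99 in WT and 14.46, 15.18 and 16.05 in KO mice of the total line, and 5.86, 7.50 and 12.30 in WT and 5.99, 7.23 and 11.15 in KO mice of the ChREBPβ line. Acta1, the actin of skeletal thin filaments, had 13.86, 16.22 and 16.88 in WT and 14.89, 15.86 and 16.62 in KO mice of the total line, and 7.36, 9.19 and 12.51 in WT and 7.30, 8.54 and 11.92 in KO mice of the ChREBPβ line. KO and WT arrays again overlapped within each line.

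Myom1, the M-line protein myomesin, differed least in this group, by 3.54 or 11.6-fold. It had 9.48, 11.73 and 12.13 in WT and 10.58, 11.41 and 12.09 in KO mice of the total line, and 7.20, 7.98 and 9.12 in WT and 7.14, 7.51 and 8.48 in KO mice of the ChREBPβ line. Ldb3, a Z-disc protein, had 9.39, 11.90 and 12.44 in WT and 10.63, 11.48 and 12.14 in KO mice of the total line, and 6.52, 6.93 and 8.63 in WT and 6.43, 6.93 and 7.90 in KO mice of the ChREBPβ line. The other members of the group include the giant filament proteins Ttn and Neb, the energy-buffering kinase Ckm and the calcium release channel Ryr1.

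Of 5 genes also used outside skeletal muscle, 4 had lines without overlap. Mb, the oxygen-storing myoglobin, differed by 6.87 or 117-fold, with 12.83, 14.54 and 15.23 in WT and 13.89, 14.60 and 15.33 in KO mice of the total line, and 5.34, 7.72 and 10.89 in WT and 6.10, 6.94 and 9.87 in KO mice of the ChREBPβ line. Des, the intermediate filament desmin, had 9.88, 11.81 and 12.73 in WT and 10.77, 11.46 and 12.02 in KO mice of the total line, and 8.32, 8.65 and 9.16 in WT and 8.39, 8.54 and 9.15 in KO mice of the ChREBPβ line. The difference for Des was 2.87, and the tropomyosins Tpm1 and Tpm2, which lie along thin filaments, differed by 2.93 and 2.72.

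Tpm3, a tropomyosin used by slow fibres and by most other cells, differed by only 0.21 on its brightest probe, A_55_P2090209. It had 13.55, 13.65 and 13.86 in WT and 13.54, 13.70 and 13.83 in KO mice of the total line, and 13.21, 13.44 and 13.70 in WT and 13.40, 13.51 and 13.61 in KO mice of the ChREBPβ line. The probe printed above, A_51_P462153, had 8.46, 10.97 and 11.59 in WT and 9.78, 10.62 and 11.28 in KO mice of the total line, and 7.22, 7.52 and 8.08 in WT and 7.41, 7.58 and 7.69 in KO mice of the ChREBPβ line. It differed by 3.01 without overlap, and A_55_P2090205, at chr3:89892985-89893044, differed by 4.21. Probes of Tpm3 thus disagreed, as did those of several other members. Differences between the lines were near 0 for 3 of 4 Tpm1 probes, at 0.14, -0.04 and -0.04, and for single probes of Myl1 (-0.53), Mylpf (-0.20), Myh4 (0.38), Ryr1 (0.16), Des (0.21) and Myom1 (0.29). In all, 59 of the 81 probes had lines without overlap, a count that follows from how the members were chosen. The share over all probes is not given here. Single probes of Myh2 (A_55_P2744634), Myoz2 (A_52_P403266) and Myom2 (A_52_P322523) were well above background on 8 of 8 arrays of each total-line group. In each ChREBPβ-line group it was 0 of 8. They passed the filter through the total line alone, which favoured their separation in advance. The same holds for other probes among the 59, since they too were seldom above background in the ChREBPβ line. Examples are Myh7 A_65_P07389 (2 of 8 WT and 0 of 8 KO arrays), Ttn A_55_P2424042 (3 and 1) and the brightest Myoz2 probe (4 and 2).

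**Figure D3:**
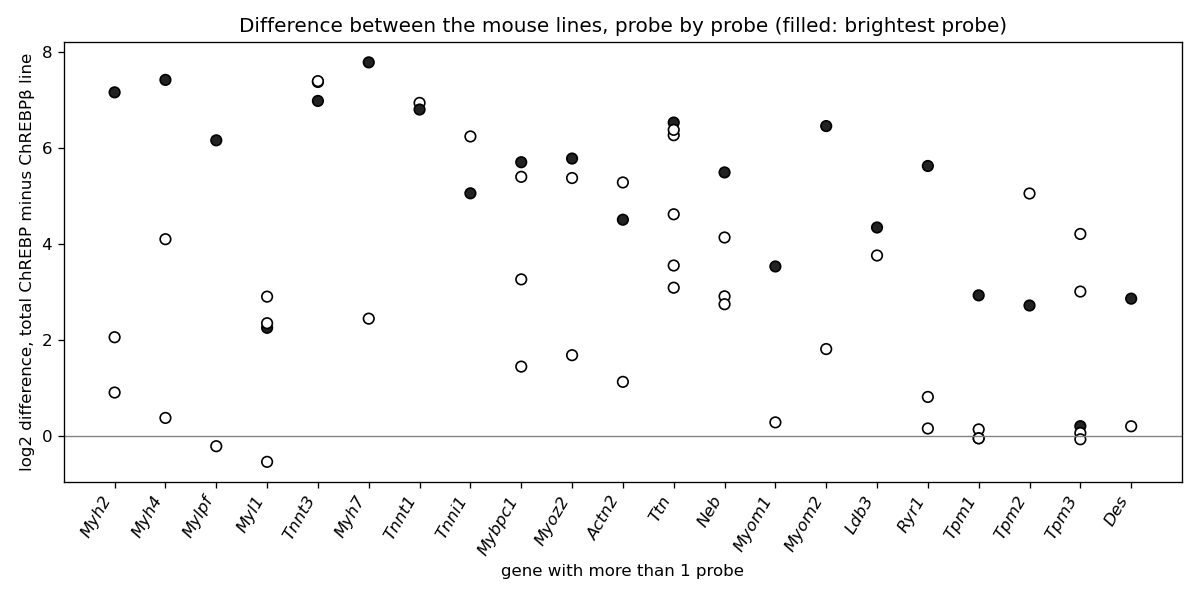
Difference between the mean log2 intensity of the 16 total-line arrays and that of the 16 ChREBPβ-line arrays (y axis) for every probe (points) of the members with more than 1 probe (x axis). Filled points are the brightest probe of a gene. Tpm3 has its brightest probe at 0.21 and others at 3.01 and 4.21, and 1 probe of Myl1 lies at -0.53.

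Among perinatal myosin and myogenic factors, Myf5 was not measurable, since its probe passed the signal criteria on 0 of 32 arrays. Myod1, a transcription factor of muscle precursors and muscle nuclei, had 5.24, 6.70 and 8.02 in WT and 6.09, 6.50 and 6.90 in KO mice of the total line, and 4.75, 4.92 and 5.40 in WT and 4.63, 4.92 and 5.04 in KO mice of the ChREBPβ line. The lines differed by 1.71 and overlapped by 0.16, again through replicate 8 of the total-line WT group. Myh8, the perinatal myosin heavy chain, had 14.94, 17.60 and 17.96 in WT and 16.80, 17.42 and 17.78 in KO mice of the total line, and 4.75, 10.94 and 14.99 in WT and 4.86, 10.06 and 14.43 in KO mice of the ChREBPβ line.

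This Myh8 signal came from 1 probe, because the gene's other 3 probes did not pass. Within the total line they met the signal criteria on 4, 5 and 0 WT arrays and on 0, 1 and 0 KO arrays, and on at most 2 arrays of either group of the ChREBPβ line. The probe that passed followed Myh4 closely, with Pearson's r of 0.995 (Spearman's rho 0.993) over the 16 total-line arrays and 0.999 (0.938) over the 16 ChREBPβ-line arrays. Without the 2 arrays farthest from the median of Myh4, r was 0.979 and 1.00. The longest run that this probe shares with the brightest Myh4 probe is 7 bases. That compares the probes with each other, and a match to the rest of the Myh4 transcript was not looked up. The signal under this name cannot be assigned to the perinatal form from these files, and its source was not tested.

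The comparison of total ChREBP KO with its WT littermates asked whether loss of both isoforms alters the muscle transcripts. None of the 39 members had a called change on the brightest probe with every array in the fit. The limma fit called 0 of 39 at an adjusted p under 0.05, and 0 at an unadjusted p under 0.05, while 44.1% of all genes were called. The median log2 fold change of the members was 0.05, with 23 members above 0 and 16 below, and that of all genes was 0.01. Without replicate 8 of the WT group the median was -0.24, and 2 members, Myl1 (-0.44, limma adjusted p 0.0472) and Myod1 (-0.5, limma adjusted p 0.028), were called as decreased. With every array in the fit, Myl1 stood at -0.22 ± 0.22 (SE, limma adjusted p 0.448) and Myod1 at -0.28 ± 0.23 (limma adjusted p 0.344). The 95% interval of a member's change had a median half-width of 1.27, and of 0.72 when the total-line arrays were fitted alone, so that smaller changes were not detectable here. Within the wash batches the median KO minus WT difference was 0.15, -0.27, -0.69 and 0.92. WT and KO arrays of the line numbered 2 and 3, 2 and 1, 2 and 2, and 2 and 2 in these batches, and batch 4 held replicate 8 of the WT group. The fit of the line alone also called 0 members, and the lowest limma adjusted p was 0.305 for Myh2.

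The slow members had log2 fold changes from -0.03 to 0.57 in total ChREBP KO and the fast members from -0.35 to 0.29, with medians of 0.20 and 0.09. The members of both fibre types lay between -0.18 and 0.16. Values for the heavy chains were -0.30 ± 0.84 (SE) for Myh1, -0.35 ± 0.83 for Myh2, 0.29 ± 1.45 for Myh4 and 0.32 ± 0.69 for Myh7. These errors come from the fit of both lines. With the total-line arrays fitted alone, the 95% half-widths were 0.63, 0.55, 0.84 and 1.01 in the same order, and each interval included 0. Among slow members the lowest limma adjusted p was 0.463, for Tnnc1 at 0.38 ± 0.39.

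Single probes of members other than the brightest gave calls in total ChREBP KO. Of the 81 probes, 2 rose and 5 fell by limma, while 43.2% of all probes were called. A second probe of Ryr1, A_51_P256401 at chr7:29807633-29807692, rose by 0.35 ± 0.08 (SE, limma adjusted p 0.00085). It had 7.31, 7.48 and 7.62 in WT and 7.43, 7.80 and 8.07 in KO mice of the total line, and 7.17, 7.48 and 7.66 in WT and 7.22, 7.53 and 7.65 in KO mice of the ChREBPβ line, and it did not separate the lines. Of Tpm1, probe A_55_P2078680 rose by 0.22 (limma adjusted p 0.00344). The other 5 fell. A dim probe of Actn2, the actinin of all fibres, fell by 0.48 (limma adjusted p 0.00125), and in the ChREBPβ line only 1 of 16 arrays measured it well above background. Dim probes also fell for Myh2 (-0.37, limma adjusted p 0.0208), Myh4 (-0.27, limma adjusted p 0.0163), Myoz2 (-0.47, limma adjusted p 0.0207) and Myom2 (-0.58, limma adjusted p 0.0161). These 4 were no longer called when the total-line arrays were fitted alone. Actn2 was not called with the processed signal or with slide as a block, while the Ryr1 and Tpm1 probes were called in all 42 alternatives.

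The comparison of ChREBPβ KO with its WT littermates asked the same of the short isoform. Again none of the 39 members was called by limma, with 0 at an unadjusted p under 0.05, where 2.7% of all genes were called. The median half-width of the members' 95% intervals was 1.58 when the ChREBPβ-line arrays were fitted alone. Of the members, 35 lay below 0 and 4 above, and the median log2 fold change was -0.65, against -0.003 over all genes. The medians were -0.70 for fast members, -0.72 for slow members and -0.08 for those also used outside skeletal muscle. Members vary together on an array, so that the count in 1 direction is not a count of independent changes. The median moved to -0.30 without replicate 3 of the WT group, to -0.31 without replicate 5 of it and to -1.04 without replicate 6 of the KO group. Within the wash batches the median KO minus WT difference was 0.06, -2.03, 1.03 and 1.30, and it thus turned direction between batches, each with 3 to 5 arrays of the line. WT and KO arrays numbered 1 and 2, 3 and 2, 1 and 3, and 3 and 1 in these batches. Batches 1, 3 and 4 thus had a single array of 1 genotype, in batch 4 replicate 6 of the KO group.

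The lowest log2 fold change in ChREBPβ KO was that of Myh1 at -1.45 ± 0.84 (SE, limma adjusted p 0.486). Tnnc1 had -0.68 ± 0.39 (limma adjusted p 0.469), Myom1 -0.49 ± 0.32 (limma adjusted p 0.554) and Tpm3 0.07 ± 0.06 (limma adjusted p 0.696). In a fit of the ChREBPβ-line arrays alone, Tnnc1 had a 95% interval of -1.13 to -0.23, an unadjusted limma p of 0.00508 and a limma adjusted p of 0.144, the lowest of the 39. At the level of probes, 0 of 81 were called and 1 had an unadjusted p under 0.05, where 2.55% of all probes were called.

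The difference between the KO effects, ChREBPβ KO minus total ChREBP KO, was called for 0 of 39 members by limma, with 0 at an unadjusted p under 0.05, where 25.2% of all genes were called. Its median was -0.66 over the members, with 33 of 39 below 0, and -0.02 over all genes. The lowest limma adjusted p was 0.168, for Tnnc1 at -1.06. At the level of probes, 1 of 81 was called, against 24.1% of all probes, and it was the dim Actn2 probe with 0.52 (limma adjusted p 0.0226). That call was lost with the processed signal, with the median intensity scaled at the 75th percentile (limma adjusted p 0.342) and with slide as a block.

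**Figure D4:**
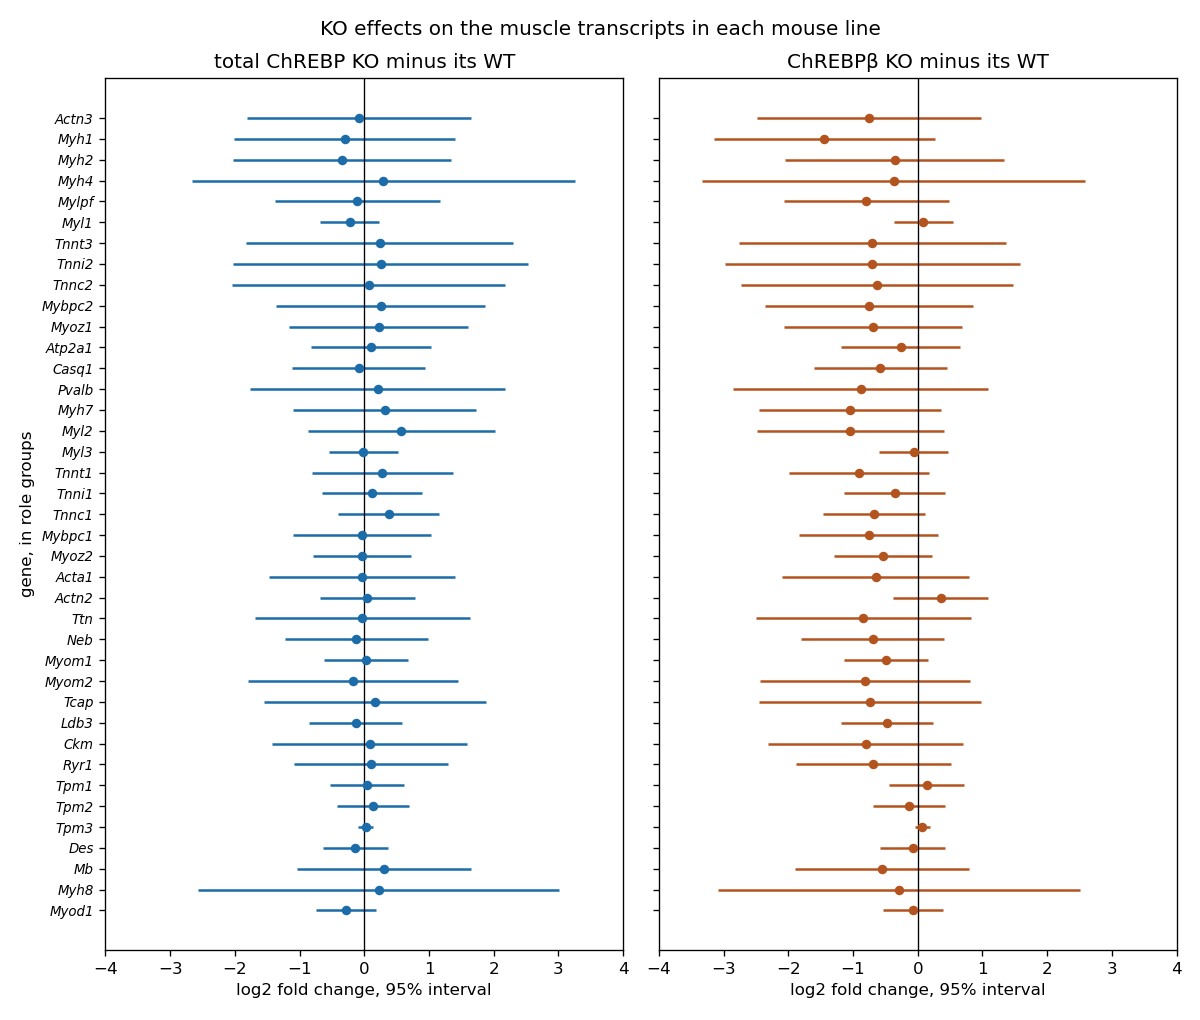
Log2 fold change (x axis) of each of the 39 members (y axis) in total ChREBP KO (left) and ChREBPβ KO (right) against the WT group of the same line, with the 95% interval from the limma fit over all 32 arrays, which pools the spread of both lines. Most estimates lie near 0 on the left and below 0 on the right, with medians of 0.05 and -0.65, and every interval includes 0.

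Fast and slow transcripts varied together from array to array. The array medians of the fast and slow members had a Pearson's r of 0.907 (Spearman's rho 0.856) over the 16 arrays of the total line and of 0.866 (rho 0.906) over the 16 arrays of the ChREBPβ line. Without the 2 arrays farthest from the median of the fast genes, r was 0.823 and 0.810. These are descriptions over arrays that share a normalization and, within a slide, a hybridization.

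The ChREBPβ line held arrays at very different levels. On replicates 2, 4 and 7 of its WT group and replicates 1 and 4 of its KO group, the fast median was between 5.63 and 5.79 and the slow median between 5.51 and 6.03, and 27 to 31 members were well above background. At the other end, replicates 1, 3 and 5 of the WT group had fast medians of 10.67, 11.41 and 11.04 and slow medians of 8.28, 9.63 and 9.99, and replicate 6 of the KO group had 10.14 and 8.34. Low and high arrays thus occurred in both genotypes. By wash batch, the fast medians of the line ran from 5.66 to 5.75 in batch 1, from 5.79 to 11.41 in batch 2, from 5.63 to 9.25 in batch 3 and from 8.21 to 11.04 in batch 4. All 4 high arrays were washed in batches 2 and 4, and the part of the wash batch in these levels was not tested. The 7 arrays between them had fast medians from 7.09 to 9.25, while their slow medians stayed between 5.70 and 6.89.

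On several of these arrays the fast genes stood well above their lowest level in the line while the slow genes were close to theirs. Replicate 7 of ChREBPβ KO had a fast median 3.63 above that of the lowest array of the line and a slow median 0.58 above its lowest. Replicate 8 of the ChREBPβ-line WT group had 2.59 and 0.26, and replicate 2 of ChREBPβ KO 1.91 and 0.19. Near the floor of the arrays a log2 value understates a change, which bears on both medians. The fast median exceeded the slow one by 0.85 to 2.06 on the total-line arrays and by -0.27 to 3.17 on the ChREBPβ-line arrays, and since these are different probes, the size of that gap within an array has no meaning of its own.

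**Figure D5:**
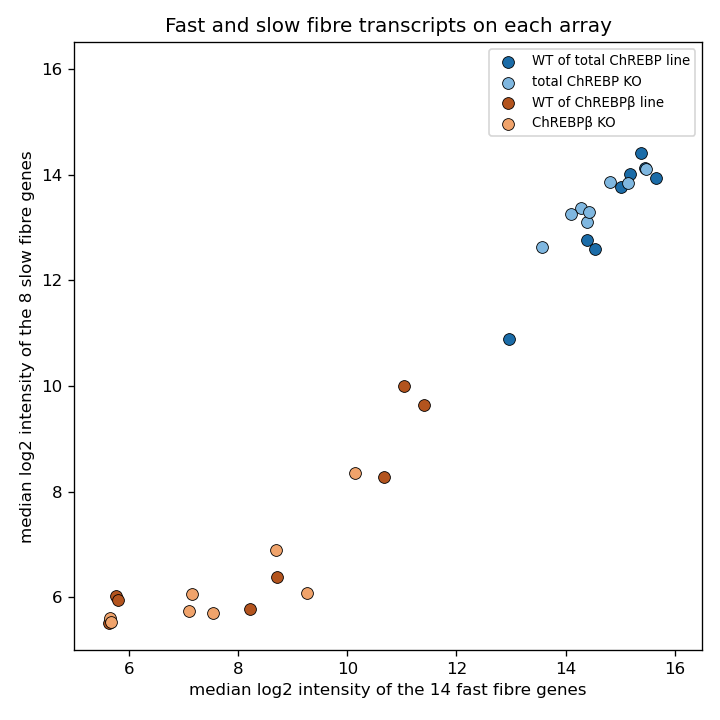
Median log2 intensity of the 14 fast fibre genes (x axis) against that of the 8 slow fibre genes (y axis) on each array (points, coloured by group). The total-line arrays lie at 12.96 or more on the x axis and the ChREBPβ-line arrays at 11.41 or less, and 7 ChREBPβ-line arrays have fast medians from 7.09 to 9.25 with slow medians of 6.89 or less.

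Over all pairs of members the median Pearson's r was 0.929 in the total line and 0.857 in the ChREBPβ line, each over 16 arrays (Spearman's rho 0.906 and 0.753). Pairs of fast genes had medians of 0.948 and 0.950, pairs of slow genes 0.951 and 0.918, and pairs of a fast and a slow gene 0.895 and 0.852. By Spearman's rho the order turned in the ChREBPβ line, where pairs of slow genes had a median of 0.725 and pairs of a fast and a slow gene 0.753. Many slow values lie near the floor there, and no difference between these medians was tested. Least in step in the total line were Tpm3, with a median r to the other members of 0.133, Myh2 with 0.709 and Myod1 with 0.742. In the ChREBPβ line they were Tpm3 with 0.372, Myod1 with 0.512, Actn2 with 0.524 and Tnnc1 with 0.639. The total-line values rest in part on replicate 8 of its WT group, the lowest array.

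Outside the list, the 10 genes most like the fast and slow members, by the lower of their Pearson's r in the 2 lines, were Cacna1s, Cox6a2, Hrc, Ampd1, Tmod4, Jsrp1, Pgam2, Rtn2, Asb16 and Art1. Their r with the median of these members lay between 0.965 and 0.983 over the 16 arrays of each line. Of the 10, 7 belong to the list of other skeletal muscle genes. Cacna1s is the voltage sensor of the muscle calcium channel, Cox6a2 a muscle subunit of cytochrome oxidase and Ampd1 the muscle AMP deaminase.

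Of the 42 other skeletal muscle genes, 7 were called in total ChREBP KO by limma, where 44.1% of all genes were called, so the share in the list was below that of all genes. Of the 7, 6 fell and 1 rose. In this list 0 were called in ChREBPβ KO, with 0 at an unadjusted p under 0.05, and the list's median log2 fold changes were -0.09 and -0.34. Myh3, the embryonic myosin heavy chain, fell by 3.44 (SE 0.54, limma adjusted p 4.07e-06). Its lowest, median and highest values were 6.08, 8.56 and 11.28 in WT and 4.90, 5.19 and 5.78 in KO mice of the total line, which did not overlap. In the ChREBPβ line it was well above background on 0 of 8 WT and 1 of 8 KO arrays. Its KO effects differed by 3.50 (limma adjusted p 0.00089).

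The others that fell were Mybph, a myosin-binding protein, by 1.55 (limma adjusted p 0.00119), Chrna1, a subunit of the muscle acetylcholine receptor, by 1.29 (limma adjusted p 0.00254), Sln, a small regulator of the calcium pump, by 1.37 (limma adjusted p 0.0117), Myog, the differentiation factor myogenin, by 1.21 (limma adjusted p 0.00379), and Musk, the receptor kinase of the neuromuscular junction, by 0.69 (limma adjusted p 0.00166). Myog had 6.57, 7.84 and 10.099 in WT and 6.17, 6.87 and 7.12 in KO mice of the total line, which overlapped. Xirp1, an actin-binding protein of muscle, rose by 0.74 (limma adjusted p 0.0145). Only Myh3 and Mybph had a called difference between the KO effects, for Mybph of 1.46 (limma adjusted p 0.0445), which was not called in 27 of 40 alternatives, wash batch and slide as a block among them.

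The 3 tendon genes fell as well in total ChREBP KO, a contrast in which 44.1% of all genes were called, Thbs4 by 2.11 (limma adjusted p 4.52e-06), Comp by 0.46 (limma adjusted p 0.00589) and Fmod by 0.35 (limma adjusted p 0.00123). Thbs4 had 7.86, 8.99 and 10.95 in WT and 6.52, 6.89 and 7.85 in KO mice of the total line, and 4.71, 5.09 and 5.80 in WT and 4.55, 5.10 and 6.08 in KO mice of the ChREBPβ line. Total-line WT and KO arrays of Thbs4 did not overlap, 7.86 being the lowest WT and 7.85 the highest KO value. Of 6 cardiac genes 1 rose and 3 fell, and of 6 smooth muscle genes 1 rose and 1 fell, against the same share of all genes. The part of other cells in the muscle values was not tested.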

How the data were processed

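Brown adipose tissue RNA of 32 mice was hybridised to Agilent 1-colour arrays. The authors deposited the median intensity of each spot, written by Agilent Feature Extraction 10.10.1.1 without normalization between arrays, and a log2 table, which per their methods had gone through a filter, quantile normalization and the median over repeated probes. These steps were repeated from the intensities in R 4.3.3. Spots had to be found, positive and well above background on 26 or more arrays in all or 6 or more of a single group, which left 39985 of 59305 spots and 37306 probes. Values differed from the deposited table by 0.00298 on average. Arrays have no read depth, so their number limits the precision. On each array 64.4% to 71.1% of spots exceeded background clearly, and 0 were saturated.

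The 4 group means of each probe were fitted with limma 3.58.1 (lmFit, then eBayes) using every array. Two-sided p values were adjusted by Benjamini-Hochberg across the probes of each contrast, with 0.05 as the threshold for a call. P values measure the spread between these arrays, and the labels give each a replicate number. Intervals are at 95%. The muscle, tissue and role lists came from general knowledge, and the members and lists were chosen with earlier results of these data known. Full values are given for the members with the lowest adjusted p in each KO contrast and the largest line difference of each role group, the 4 adult myosin heavy chains, the myogenic factors and members called in ChREBPβ KO. Acta1, single probes, and genes of the lists were added after their values were seen.

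Alternatives were the processed signal or the median intensity scaled to the 75th percentile, normexp with an offset of 50, the deposited table, no filter, a filter for probes clear of background on every array, blocks for wash batch, slide or replicate number, the own line only, a 1.5-fold threshold, any probe of a member, and the omission of each single array. A sign change between values that were not called was not counted as a reversal. The script was tested on simulated data.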

Additional observations from a re-analysis of the deposited data

Results flagged for a closer look

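Each member was examined for a single array set apart from the other 7 of its group by Dixon's criterion, for which chance gives about 1 in 20 groups. Of 156 groups, 18 held such an array, and members vary together, so the groups are not independent.

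In the total-line WT group, replicate 8 was set apart as the lowest for 11 members. Its log2 intensities were 9.25 for Actn3, 14.10 for Myh4, 9.32 for Mybpc2, 10.19 for Myoz1, 12.36 for Pvalb, 11.06 for Myl2, 10.73 for Mybpc1, 8.91 for Myoz2, 9.85 for Neb, 9.39 for Ldb3 and 14.94 for Myh8. The next lowest array of the group was at 12.51 for Actn3 and at 13.46 for Myl2.

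In ChREBPβ KO, replicate 6 was set apart as the highest for 6 members, with 9.15 for Atp2a1, 8.28 for Myl2, 8.87 for Tnnt1, 8.06 for Tnni1, 8.63 for Mybpc1 and 7.90 for Ldb3. Replicate 3 of that group was lowest for Myod1 with 4.63, on a probe near the floor of the arrays.

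The KO effects differed between the lines by limma for the dim Actn2 probe (0.52), Mybph (1.46) and Myh3 (3.50), each a fall in total ChREBP KO without a call in ChREBPβ KO. The signals of these probes in the ChREBPβ line were near or below background on many arrays for Actn2 and Myh3, which limits any fall that could be seen there. The difference for Mybph was not called in 27 of 40 alternatives and that for the Actn2 probe in 3.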

How the results depend on the processing

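The counts of called members were 0 in total ChREBP KO, ChREBPβ KO and their difference, and the other settings gave 0 with the exceptions that follow. With probes well above background on all arrays, 14 members could be tested, 1 was called in total ChREBP KO and 1 in the difference, both Ryr1 (0.34, limma adjusted p 0.000811, and -0.30, limma adjusted p 0.0471), and 12 of 14 members had lines without overlap, because the probe of Ryr1 changed and fewer members remained. With any probe of a member, 7 were called in total ChREBP KO and 1 in the difference. Shares of all genes under these settings are not given here. In the main fit, 43.2% of all probes were called in total ChREBP KO and 24.1% in the difference. Leaving out each array in turn gave 0 to 2 members in total ChREBP KO, the 2 without replicate 8 of the WT group. The number of members whose lines do not overlap was then 32 to 38, and it cannot fall when an array is left out. The share over all genes under these omissions is not given here. The alternatives for that number and for single probes and list genes were chosen after seeing the data.

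The median log2 fold change of the members was -0.06 to 0.05 in total ChREBP KO and -0.70 to -0.25 in ChREBPβ KO under other scalings and filters, and the WT line difference 3.99 to 6.38. Leaving out each array gave -0.24 to 0.19, -1.04 to -0.30 and 5.39 to 6.03. No scaling moved the median of all genes by over 0.1.

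With the replicate number as a block (replicate block) the counts were 0, 0 and 0. Of the pairs of equal numbers, 6 of 8 correlated above 0.1 in the ChREBPβ line (-0.20 to 0.53) and 0 of 8 in the total line (-0.30 to 0.08). Since neither line had every pair above 0.1, the numbers were not taken to pair the arrays. Of the list genes, the difference for Mybph was not called in 27 of 40 alternatives (highest limma adjusted p 0.104), Sln was not called in 1 and Xirp1 in 2 of 41, and Myh3, Chrna1, Musk and Myog in total ChREBP KO were called in all 41. Arrays near the floor limit what can be seen in the ChREBPβ line.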
